A study of Homo sapiens with 18 samples.

Results

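The experiment described here exposed DG75 cells to TPCK for 1 h and compared them with untreated DG75 cells. DG75 is an established cell line grown from a Burkitt lymphoma, a tumour of germinal centre B cells, and carries no Epstein-Barr virus. The members are all arrays of these groups, 3 of cells given 75 µM TPCK (numbered 7, 8 and 9 in the deposited table) and 3 of untreated cells (13, 14 and 15), which makes 6 of the 18 arrays of the series. The other 12 held DG75 given 50 µM Bay-11 for 1 h and the line Raji, which carries the virus, untreated or given either compound at the same dose and time. No vehicle is named for the untreated cells. The design text names TPCK for Raji alone, whereas sample titles and column names give it for DG75 too, and these were followed. Each line stands for 1 tumour. The labels leave unsaid whether a group's 3 arrays are 3 cultures, so p-values cover only the variation among these samples, and that may be technical. Treated arrays of the series are numbered 1 to 12 and untreated arrays 13 to 18, the meaning of the numbers is not given, and a batch behind them cannot be told apart from treatment.

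NF-kB is a family of dimeric transcription factors that inhibitor proteins of the IkB type hold in the cytoplasm. In B cells, signals from the B cell receptor, CD40 and Toll-like receptors activate IkB kinases, IkB is destroyed, and the freed dimers switch on genes of chemokines, survival factors and the IkB proteins themselves. TPCK, a chloromethyl ketone built on phenylalanine, alkylates chymotrypsin-like proteases and also reacts with cysteine thiols of other proteins, and it has long been used to block NF-kB activation. Many RNAs of such response genes are short-lived, as are the spliced-out introns from which most small nucleolar RNAs are cut.

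After 1 h of TPCK, probe signals of small nuclear and small nucleolar RNAs made the largest named changes, and among the other genes CXCL8, KBTBD8, CD69 and BCL2A1 fell over 2-fold. A gene is called here when its adjusted p is under 0.05, from limma's moderated test over all genes with Benjamini-Hochberg adjustment. Among 10697 genes, 53 were called (0.495%), of which 18 rose (0.168%) and 35 fell (0.327%). The unadjusted p was under 0.05 for 1230 genes (11.5%). Changes are differences of mean log2 signal, TPCK minus control, ± SE with n = 3 arrays per group, and 25 of them exceeded 2-fold, 6 upward and 19 downward. The 19 include DUSP10, undetected with TPCK, for which only a decrease of at least 1.78-fold is shown. Small non-coding RNAs made up 20 of the called genes, 6 higher and 14 lower, and the other 33 were 12 higher and 21 lower. In all 53, the 3 TPCK arrays lay beyond the 3 control arrays, which was also so for 1867 of all genes (17.5%). Of the 53, 46 were detected on all 6 arrays. The split of the calls depended on scaling. With each array centred on its median in place of quantile normalization, the median of all genes moved from 0.02 to 0.30 and 22 genes were called, 16 higher and 6 lower. With no scaling the median was 0.39 and the calls were 12 higher and 1 lower. No called gene changed direction under either scaling.

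**Figure D1:**
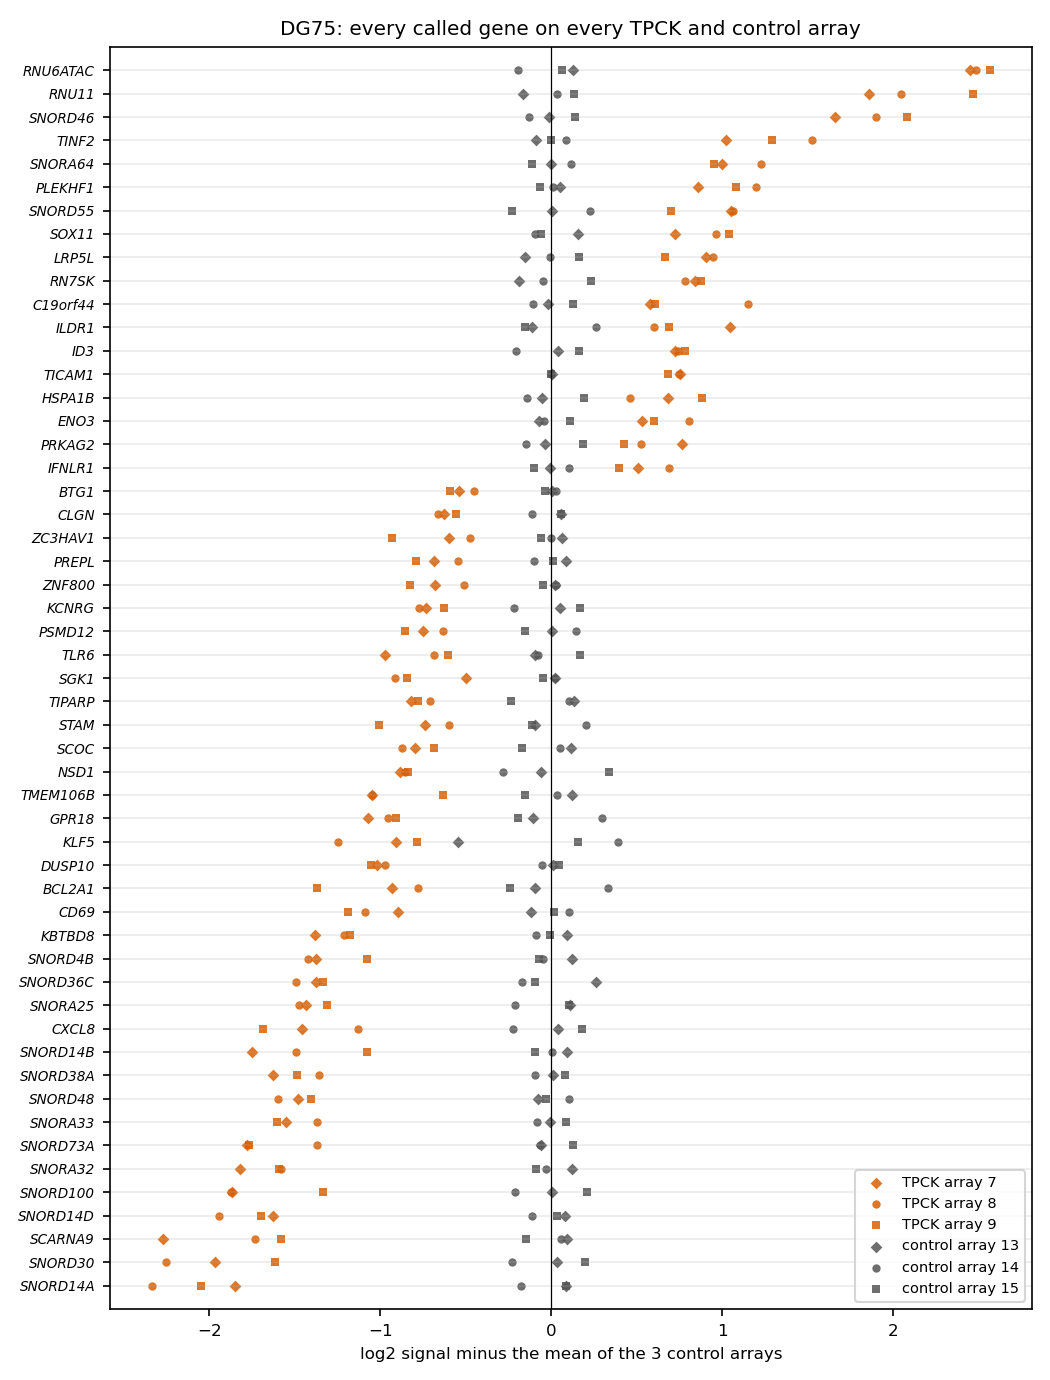
Each row is 1 of the 53 called genes and each point 1 array, on a log2 scale relative to the mean of the 3 control arrays; orange marks TPCK and grey control, with a marker shape for each array. TPCK points lie to 1 side of the control points in every row, from SNORD14A at the bottom to RNU6ATAC at the top.

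Array 7 stood apart. It alone detected 687 probes, and each of the other 17 arrays alone detected 50 to 327. Of 17 breast and secretory epithelium markers with a probe, 15 were detected on array 7, 1 to 2 on arrays 8 and 9 and 0 to 1 on the controls, with summed signals of 24420, 414 to 442 and 415 to 447. Of 13 fibroblast and stroma markers, 12 were detected on array 7 and 2 to 3 on the other 5, with summed signals of 6261 against 513 to 542. KRT7, KRT18 and FBN1 were not detected there. Liver markers were detected for 2 of 5 on array 7 (summed signal 1156, against 334 to 396 on the other 5) and myeloid markers for 4 of 5 (1053, against 506 to 721, with 3 of 5 detected). The B cell markers, 5 of 5 on every array, summed to 26190 on array 7, to 26970 and 27700 on arrays 8 and 9 and to 23890 to 24210 on the controls, so the labelled cell type was present throughout. Probes detected ran from 14269 to 15752 on TPCK and from 13710 to 14270 on control arrays, and mean raw signals from 208.5 to 298 and from 182 to 235. Without array 7, 39 of 10606 genes were called (0.368%), 13 higher (0.123%) and 26 lower (0.245%). Of the 53, 30 were called in both fits and 23 were lost, while 9 were called without array 7 only. All 53 kept their direction. Values without array 7 are given below for the members in detail and, for the rest, as called or not called without it.

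**Figure D2:**
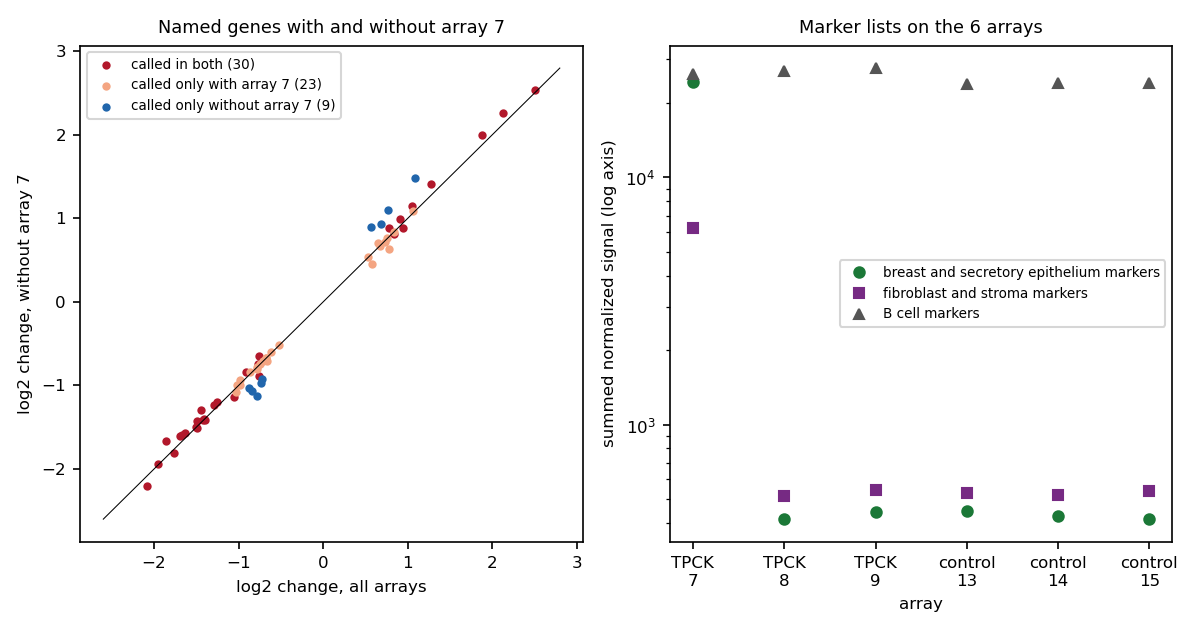
On the left, each point is 1 gene called in either fit, with its log2 change over all arrays on the horizontal axis, the change without array 7 on the vertical axis and a line of equality. On the right, points give the summed normalized signal of 3 marker lists on each of the 6 arrays on a log axis. Changes lie near the line, and the 2 lists of other tissues are high on array 7 alone.

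RNU6ATAC and RNU11, RNAs of the minor spliceosome, rose most among named genes. RNU6ATAC, the U6atac RNA, belongs to the catalytic core of this spliceosome, which removes a rare class of introns. It had log2 signals of 8.84, 8.87 and 8.96 on arrays 7, 8 and 9 and of 6.52, 6.19 and 6.45 on arrays 13, 14 and 15. The groups were far apart, and within TPCK the arrays differed little. The change was 2.50 ± 0.13, or 5.66-fold (limma, adjusted p = 1.96e-08), and 2.54 without array 7. RNU11, the U11 RNA that recognises the 5′ splice site of the same introns, measured 8.04, 8.23 and 8.65 with TPCK and 6.02, 6.21 and 6.31 without. It rose 4.36-fold (2.13 ± 0.19, adjusted p = 8.26e-06), with 2.27 without array 7. RN7SK, the scaffold RNA that holds the elongation kinase P-TEFb inactive, rose by less. Its levels were 10.67, 10.61 and 10.71 against 9.64, 9.78 and 10.06, with no overlap. The change was 0.83 ± 0.17 (adjusted p = 0.0336), and 0.83 without array 7 (adjusted p = 0.0860). A second RN7SK probe gave 1.05 ± 0.21. RPPH1, the RNA of the tRNA-processing enzyme RNase P, was not called with all arrays (0.69, adjusted p = 0.122) and was called without array 7 (0.93, adjusted p = 0.0116). RN7SL1, the RNA of the signal recognition particle, had a change of 0.10 ± 0.19 (adjusted p = 0.909). Of these 5 measured RNAs 3 rose and 0 fell, with a median of 0.84 against 0.02 over all genes. Which form of these RNAs, mature or longer, the probes report was not tested.

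Most small nucleolar RNAs that were called fell. These RNAs guide chemical modification of ribosomal RNA, the box C/D kind 2′-O-methylation and the H/ACA kind pseudouridylation, and most are released from introns of ribosomal protein and related genes. Of 36 box C/D RNAs measured, 10 fell, 2 rose and 24 were not called, and of 10 H/ACA RNAs 3 fell, 1 rose and 6 were not called. The medians were -0.46 and -0.51. With median centring they were -0.18 and -0.17, beside 0.30 over all genes, with 4 down and 3 up and 1 down and 1 up. Relative to the median of all genes, they were -0.48 and -0.525 with quantile normalization and -0.482 and -0.473 with median centring. With no scaling no box C/D or H/ACA RNA was called lower. Mature RNAs of these kinds carry no poly(A) tail, whereas the labelling kit primes on such tails, and which form of the RNA, mature or longer, a probe reports was not tested.

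SNORD14A had the lowest change of all named genes. Its levels were 5.87, 5.38 and 5.67 with TPCK and 7.81, 7.55 and 7.81 without, a 4.23-fold decrease (-2.08 ± 0.23, adjusted p = 0.000121). Copies of this RNA lie in RPS13 and in the heat shock cognate gene HSPA8. SNORD14B fell too (-1.44 ± 0.15, adjusted p = 5.40e-05), as did SNORD14D (-1.76 ± 0.29, adjusted p = 0.00583). SNORD14D was detected on 1 of 3 TPCK arrays. Without array 7 the changes of SNORD14A, SNORD14B and SNORD14D were -2.20, -1.29 and -1.81. SNORD14C did not pass the test (-0.76 ± 0.29, adjusted p = 0.330), and its TPCK arrays overlapped the controls. The copies are near-identical, so signal may be shared between their probes.

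SNORD30, from the host transcript SNHG1, measured 5.45, 5.17 and 5.80 with TPCK and 7.46, 7.19 and 7.62 without (-1.95 ± 0.32, adjusted p = 0.00583). SCARNA9, which guides modification of spliceosomal RNA in Cajal bodies, measured 6.41, 6.95 and 7.10 against 8.77, 8.74 and 8.53 (-1.86 ± 0.19, adjusted p = 5.40e-05). Both groups of each were apart by over 1 log2 unit. SNORD38A measured 5.11, 5.38 and 5.25 against 6.75, 6.65 and 6.82 (-1.49 ± 0.13, adjusted p = 7.89e-06). The H/ACA RNA SNORA33 measured 7.72, 7.91 and 7.67 against 9.27, 9.19 and 9.36 (-1.51 ± 0.13, adjusted p = 8.26e-06). The remaining decreases were SNORD100, SNORD73A, SNORD48, SNORD36C, SNORD4B, SNORA32 and SNORA25, with changes from -1.69 to -1.29. Of these, SNORD4B was detected on 1 of 3 TPCK arrays. Without array 7, SNORD30 had -1.94, SCARNA9 -1.66, SNORD38A -1.42 and SNORA33 -1.49, and all 14 small RNAs that fell were also called.

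The RNAs that rose were SNORD46, SNORD55 and SNORA64. SNORD46 measured 7.32, 7.56 and 7.73 with TPCK and 5.64, 5.53 and 5.79 without, a 3.68-fold increase (1.88 ± 0.16, adjusted p = 7.89e-06) and was also called without array 7 (adjusted p = 2.15e-05). SNORD55 measured 6.39, 6.40 and 6.04 against 5.34, 5.56 and 5.11 (0.94 ± 0.14, adjusted p = 0.00283), and 0.88 without array 7. SNORA64, in RPS2, rose by 1.06 ± 0.21 (adjusted p = 0.0314), and was not called without array 7 (adjusted p = 0.0730).

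The genes that contain these RNAs were compared next, since a host mRNA and its intronic RNA come from 1 transcript. Positions were taken from RefSeq (GRCh38.p14), without regard to strand. Of 47 small nucleolar and Cajal body RNAs measured, 46 lay within another gene. They fell into 26 such genes, of which 20 were measured and 0 called by limma, with 1 at an unadjusted p under 0.05. Changes of the 20 ran from -0.33 to 0.33 with a median of 0.00. For 12 of the 17 called RNAs the containing gene was measured, 9 genes in all, and the smallest adjusted p among these was 0.366. RPS13 had a change of 0.06 ± 0.11, RPS12, which contains SNORD100 and SNORA33, one of -0.26 ± 0.14, and TAF1D, which contains SNORA32 and SNORA25, one of 0.00. SNHG1 and CEP295 were not measured. Further RNAs of these and other hosts were not called. In RPL13A, SNORD32A had a change of -0.47 and SNORD35A one of 0.69, and in SNHG1, SNORD31 had -1.94 ± 0.42 (adjusted p = 0.0546). In RPS12, SNORD101 had -1.08 ± 0.26 (adjusted p = 0.0874). SNORD31, SNORD32A, SNORD35A and SNORD101, like the host genes, were picked out after their values had been seen. None of 68 cytosolic ribosomal protein genes was called (median 0.02), nor any of 23 genes of the RNA polymerase I machinery (median 0.00).

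**Figure D3:**
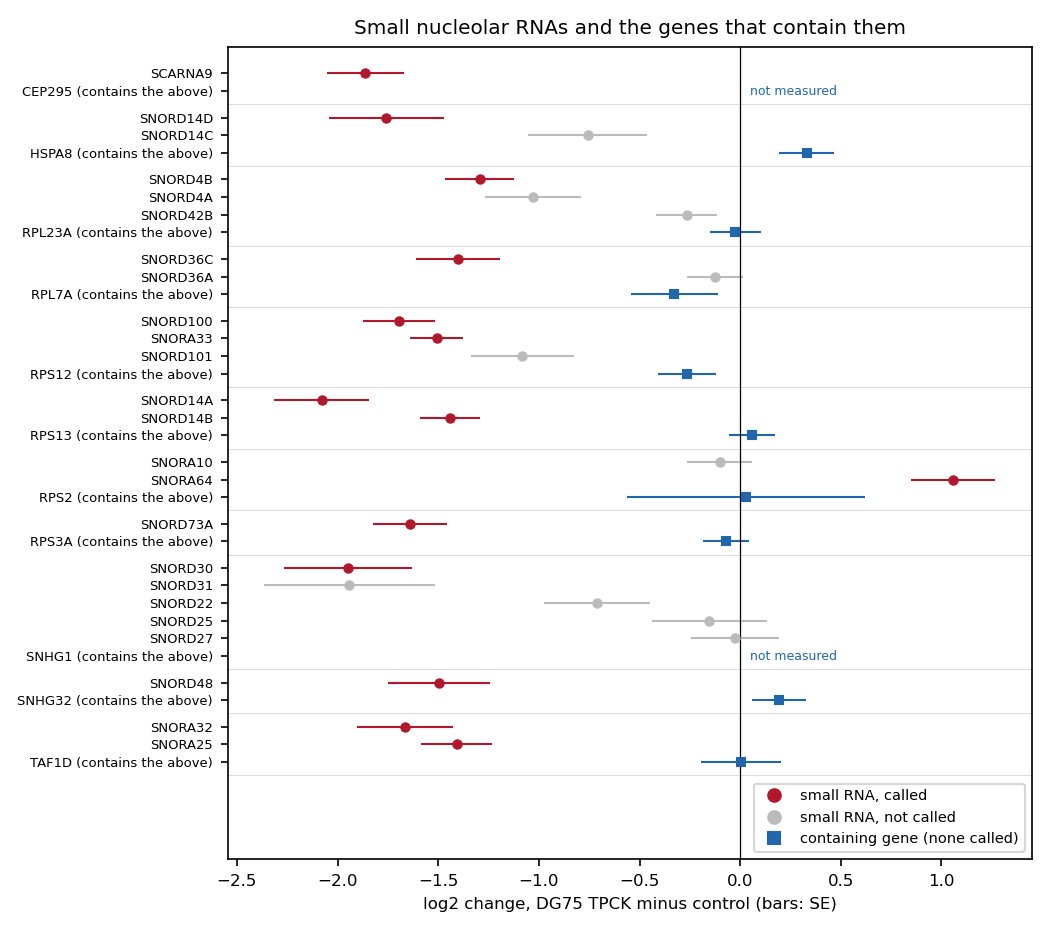
Circles give the log2 change ± SE of small nucleolar and Cajal body RNAs, grouped by the gene that contains them, for 11 containing genes with at least 1 called RNA; red circles were called and grey ones were not. Blue squares give the containing gene, which lies between -0.33 and 0.33 wherever it was measured. In RPS2 the called RNA, SNORA64, lies to the right, at 1.06.

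Of the NF-kB target genes, those that passed the test fell. Of 52 measured, 3 fell, 0 rose and 49 were not called, with a median of 0.06. CXCL8, the neutrophil chemokine interleukin-8, measured 7.83, 8.16 and 7.60 with TPCK and 9.33, 9.07 and 9.48 without. It fell 2.69-fold (-1.43 ± 0.19, adjusted p = 0.000637), a second probe gave -1.27 ± 0.18, and the change was -1.41 without array 7 (adjusted p = 0.00510). CD69, an early activation marker of lymphocytes, measured 7.13, 6.93 and 6.83 against 7.90, 8.13 and 8.04. It fell 2.08-fold (-1.06 ± 0.18, adjusted p = 0.0105), while its second probe gave -0.59 ± 0.17. Without array 7 CD69 had -1.14 (adjusted p = 0.0181), and leaving out array 9 or 14 ended its call, at adjusted p values of up to 0.0722. BCL2A1, a BCL2 relative that protects activated B cells from death, measured 6.07, 6.22 and 5.63 against 6.91, 7.33 and 6.76. The groups did not overlap, and it fell 2.04-fold (-1.03 ± 0.21, adjusted p = 0.0359), with -1.08 and an adjusted p of 0.0732 without array 7. Leaving out array 9, 13 or 14 also ended the call of BCL2A1, at adjusted p values of up to 0.2155. With median centring none of the 52 was called.

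The 250 bases before the transcription start are shown for CXCL8 and BCL2A1, which fell, and for NFKBIA, the classical IkB target, which did not pass the test. They are RefSeq sequences of GRCh38.p14, 5′ to 3′ on the gene's strand, from chr4:73740319-73740568 (plus strand) for CXCL8, chr15:79971197-79971446 (minus strand) for BCL2A1 and chr14:35404750-35404999 (minus strand) for NFKBIA. Capitals mark matches on either strand. The letters GGNNNTTCC stand for NF-kB. For the AP-1 factors of the FOS and JUN type the searched letters were TGANTCA. The TATA box was searched as TATAAA.
CXCL8: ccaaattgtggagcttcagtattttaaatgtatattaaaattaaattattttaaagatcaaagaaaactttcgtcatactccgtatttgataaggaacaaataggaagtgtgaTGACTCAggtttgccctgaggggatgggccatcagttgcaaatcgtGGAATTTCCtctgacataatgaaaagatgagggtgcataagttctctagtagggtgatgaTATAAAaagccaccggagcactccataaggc
BCL2A1: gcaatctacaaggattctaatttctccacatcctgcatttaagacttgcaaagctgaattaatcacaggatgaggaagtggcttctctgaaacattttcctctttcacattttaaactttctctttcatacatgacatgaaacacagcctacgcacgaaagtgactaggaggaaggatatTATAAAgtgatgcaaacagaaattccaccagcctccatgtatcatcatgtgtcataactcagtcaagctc
NFKBIA: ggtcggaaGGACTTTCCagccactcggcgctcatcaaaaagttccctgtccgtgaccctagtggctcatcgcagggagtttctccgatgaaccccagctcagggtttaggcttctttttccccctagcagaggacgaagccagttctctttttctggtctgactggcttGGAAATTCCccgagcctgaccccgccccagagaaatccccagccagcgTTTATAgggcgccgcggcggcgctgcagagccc

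The CXCL8 window held an NF-kB match 91 to 83 bases before the start and an AP-1 match 137 to 131 bases before it. NFKBIA held NF-kB matches 242 to 234 and 81 to 73 bases before the start, and BCL2A1 held no NF-kB match in this window. Of all 27305 promoters in the table, 17.1% held an NF-kB match, 6.60% an AP-1 match and 11.1% a TATA match. Of the 53 called genes 28 had an entry, and the NF-kB letters were present for 4 of 19 that fell (CXCL8, KLF5, STAM and CLGN) and for 2 of 9 that rose (ENO3 and TICAM1). A match describes letters only.

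The factors and inhibitors themselves were not called. Of 38 measured components of the NF-kB pathway 0 rose and 0 fell by limma, 5 had TPCK arrays wholly above and 5 wholly below the controls (8.65% and 8.81% of all genes), and the median was 0.07. NFKBIA, which encodes IkB alpha, measured 11.39, 11.90 and 11.70 with TPCK and 12.09, 12.36 and 12.15 without. The groups did not overlap, with a change of -0.54 ± 0.19 (adjusted p = 0.287). NFKBIZ, an atypical nuclear IkB, had -0.38 ± 0.10 (adjusted p = 0.143). NFKB2, the p100 precursor, had 0.78 ± 0.22 (adjusted p = 0.160), and its sign changed when only the groups compared were fitted. The DNA-binding subunits NFKB1 (0.12), REL (0.05), RELA (0.11) and RELB (0.43), the deubiquitinase TNFAIP3 (-0.40), the inhibitor NFKBIE (0.39), the adaptor TRAF1 (0.40), the co-stimulatory marker CD83 (-0.23) and the adhesion molecule ICAM1 (0.19) all had adjusted p values of 0.329 or more. Of the chemokine genes, CXCL8 alone was called among 21 with all arrays. CCL3L3, a copy of the CCL3 chemokine gene, measured 6.53, 5.54 and 5.46 against 6.74, 6.56 and 6.58, and array 7 lay beside the controls. It fell by 1.13 ± 0.18 without array 7 (adjusted p = 0.00744) and had -0.78 with it (adjusted p = 0.180). CCL3 had -0.37 ± 0.17 (adjusted p = 0.432), and CCL3, CCL3L1 and CCL3L3 share sequence.

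Among 41 immediate early genes, which cells switch on within minutes of a signal, 4 fell, 1 rose and 36 were not called (median 0.04). DUSP10, a phosphatase of the kinases p38 and JNK, was detected on 3 of 3 control and 0 of 3 TPCK arrays. Its measured levels were 4.73, 4.78 and 4.70 against 5.76, 5.69 and 5.79. Where all arrays of a group lack detection, a fold is a bound against the lowest detected signal of each array, and DUSP10 was at least 1.78-fold lower (adjusted p = 0.0146, and 0.0580 without array 7). SGK1, a kinase of the AKT type, measured 8.83, 8.41 and 8.48 against 9.35, 9.35 and 9.28 (-0.75 ± 0.14, adjusted p = 0.0146). TIPARP, a mono-ADP-ribosyltransferase, fell by 0.77 ± 0.12 (adjusted p = 0.00316). BTG1, an antiproliferative gene often mutated in B cell lymphoma, fell by 0.53 ± 0.11 (adjusted p = 0.0359). ID3, which blocks the E proteins that maintain B cell identity and is itself often mutated in Burkitt lymphoma, rose. It measured 11.70, 11.72 and 11.76 against 11.01, 10.77 and 11.14 (0.75 ± 0.14, adjusted p = 0.0185). BTG1 and ID3 were not called without array 7 (adjusted p = 0.0933 and 0.0567), whereas SGK1 and TIPARP were. Leaving out array 8, 9, 13 or 14 ended the call of SGK1, at adjusted p values of up to 0.0821, whereas TIPARP was called whichever array was left out. The AP-1 and growth response genes FOS (0.41 ± 0.30), FOSB (0.19), JUN (0.01), ATF3 (0.19), EGR1 (0.24), IER2 (-0.15), KLF6 (-0.43) and DUSP1 (0.40) and the oncogene MYC (0.11) were not called, with adjusted p values from 0.401 to 0.992. For FOS, FOSB, EGR1 and DUSP1 the highest of the 6 levels was on array 7, and without it the changes were 0.03, 0.03, -0.09 and 0.16.

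Of 38 heat shock genes, HSPA1B rose and 37 were not called (median 0.07). HSPA1B, an inducible HSP70 chaperone, measured 11.14, 10.92 and 11.35 against 10.41, 10.32 and 10.65 (0.68 ± 0.14, adjusted p = 0.0359), with no overlap. Its near-identical neighbour HSPA1A had 0.70 ± 0.19 (adjusted p = 0.126), and probes of the pair may share signal. Without array 7, HSPA1B had 0.68 (adjusted p = 0.0917). The co-chaperones DNAJB1 (0.41 ± 0.20) and HSPH1 (0.08 ± 0.15) were not called. The HSPA1B promoter is shown because it held the letters searched for a heat shock element. It lies at chr6:31827488-31827737 (GRCh38.p14, plus strand, from RefSeq), and capitals mark GAANNTTC 105 to 98 bases before the start and TATAAA 29 to 24 bases before it.
HSPA1B: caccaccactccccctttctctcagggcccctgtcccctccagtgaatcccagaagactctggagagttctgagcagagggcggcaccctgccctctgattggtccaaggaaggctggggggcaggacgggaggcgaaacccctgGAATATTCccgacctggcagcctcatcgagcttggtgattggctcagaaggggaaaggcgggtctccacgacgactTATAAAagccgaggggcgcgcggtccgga

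The letters GAANNTTC, on either strand, were present in 5.85% of the 27305 promoters, in 2 of the 9 called genes with an entry that rose (HSPA1B and ILDR1) and in 1 of the 19 that fell (ZC3HAV1).

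Other stress and death programmes gave no calls by limma. Of the 24 lists, 14 had 0 called members, with medians from -0.07 to 0.21. They included 27 NRF2 and glutathione genes (median 0.08), 31 genes of the ATF4 and unfolded protein response (-0.07), 9 metallothionein and zinc genes (0.18), 26 p53 targets (-0.05), 13 pro-apoptotic BCL2 relatives (-0.03), 26 caspases and regulators (0.00), 26 interferon-stimulated genes (0.21), 15 hypoxia-response genes (-0.05), 52 genes known as hosts of small nucleolar RNAs (-0.05), 35 replication-dependent histones (0.10) and 10 genes of the MYC network (0.00). HMOX1 (-0.07 ± 0.21), GCLM (0.18 ± 0.15), TXNRD1 (0.18 ± 0.29) and SRXN1 (-0.01 ± 0.16), which NRF2 activates under electrophilic stress, had adjusted p values from 0.685 to 0.995. DDIT4, an mTOR inhibitor, had 0.65 ± 0.16 (adjusted p = 0.0936), CHAC1, which degrades glutathione, 0.62 ± 0.18 (adjusted p = 0.165), and DDIT3, the factor CHOP, 0.34 ± 0.11 (adjusted p = 0.261). For these 3 the TPCK arrays lay above the controls, as for 8.65% of all genes. Of the 31 ATF4 and unfolded protein response genes, 6 lay wholly above and 3 wholly below, the latter being ATF4 (-0.32), HSPA5 (-0.31) and DNAJB9 (-0.78), none of them called and named here after their values were seen. Among metal-response genes, MT2A had 0.38 ± 0.22, MT1X 0.18 ± 0.16 and the zinc exporter SLC30A1 -0.46 ± 0.22. MT2A was highest on array 7 (8.92), and its change without that array was 0.10. The p53 targets CDKN1A (0.26 ± 0.13) and GADD45A (-0.13 ± 0.15) and the death and survival genes PMAIP1 (-0.31 ± 0.18), BCL2L11 (0.12 ± 0.12), BMF (0.48 ± 0.26) and MCL1 (0.19 ± 0.24) were not called. The interferon list had a median of 0.10 without array 7. Of 5 anti-apoptotic BCL2 genes BCL2A1 fell (median 0.19), and of 36 genes of the B cell receptor and B cell identity ID3 rose (median 0.05).

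**Figure D4:**
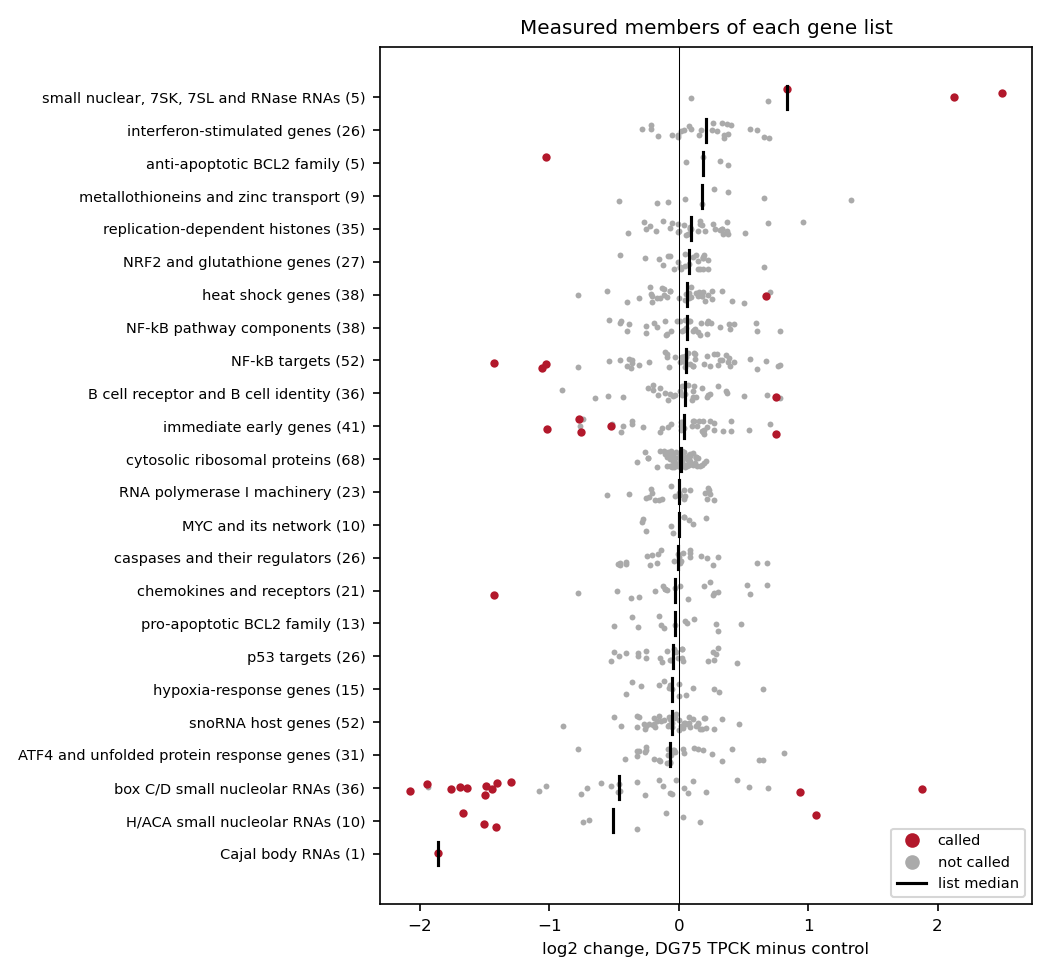
Each point is a measured member of a gene list at its log2 change, TPCK minus control, red where called; a black bar gives the list's median, and the number measured stands beside the name. The small nucleolar and Cajal body RNAs reach furthest to the left. The small nuclear, 7SK, 7SL and RNase RNAs lie to the right (median 0.835, 3 of 5 red). The other lists centre near 0 with few red points.

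Called genes outside these lists were mostly single genes of unrelated roles. TINF2, which links the proteins of the telomere cap, rose most among protein-coding genes. It measured 8.81, 9.32 and 9.09 with TPCK and 7.70, 7.88 and 7.79 without, a 2.43-fold increase (1.28 ± 0.13, adjusted p = 5.40e-05), with 1.42 without array 7. PLEKHF1, an endosomal and lysosomal protein, rose 2.06-fold (1.05 ± 0.13, adjusted p = 0.000322). SOX11, a developmental transcription factor known from mantle cell lymphoma, measured 5.83, 6.07 and 6.15 against 5.26, 5.01 and 5.05 (0.91 ± 0.16, adjusted p = 0.0146) and was detected on 2 of 3 control arrays. LRP5L (0.84 ± 0.12), C19orf44 (0.78 ± 0.16), ILDR1 (0.78 ± 0.16), TICAM1, the adaptor TRIF of Toll-like receptor 3 (0.73 ± 0.16), ENO3, the muscle enolase (0.65 ± 0.14), and IFNLR1, a chain of the interferon lambda receptor (0.53 ± 0.11), also rose. ILDR1 was detected on 1 of 3 control arrays. PRKAG2, a regulatory subunit of AMP kinase, was detected on 0 of 3 control arrays and was at least 1.01-fold higher (adjusted p = 0.0479). TINF2, PLEKHF1, SOX11, LRP5L and C19orf44 were also called without array 7, and the others in this paragraph were not. Leaving out array 8, 9, 14 or 15 ended the call of SOX11, at adjusted p values of up to 0.094. The call of C19orf44 ended without array 8, 9, 13, 14 or 15, at up to 0.203. TINF2, PLEKHF1 and LRP5L were called whichever array was left out.

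KBTBD8, a substrate adaptor of a CUL3 ubiquitin ligase, fell most after CXCL8 among protein-coding genes. It measured 7.94, 8.11 and 8.15 against 9.42, 9.24 and 9.32 (-1.26 ± 0.16, adjusted p = 0.000637), a 2.39-fold decrease with no overlap. GPR18, a receptor abundant in lymphoid cells, fell by 0.98 ± 0.18 (adjusted p = 0.0188). KLF5, a zinc finger factor of epithelia, was detected on 0 of 3 TPCK arrays and was at least 1.56-fold lower (adjusted p = 0.0248). TMEM106B, a lysosomal membrane protein, fell by 0.91 ± 0.14 (adjusted p = 0.00316) and TLR6, a partner of Toll-like receptor 2, by 0.75 ± 0.12 (adjusted p = 0.00587). The histone methyltransferase NSD1 (-0.86 ± 0.18), SCOC (-0.79 ± 0.15), the endosomal sorting protein STAM (-0.78 ± 0.16), the proteasome subunit PSMD12 (-0.75 ± 0.15), KCNRG (-0.71 ± 0.14), ZNF800 (-0.67 ± 0.14), PREPL (-0.67 ± 0.13), the antiviral zinc finger protein ZC3HAV1 (-0.67 ± 0.14) and the testis chaperone CLGN (-0.62 ± 0.12) made up the rest. Of these decreases KBTBD8, TMEM106B and TLR6 were also called without array 7. Of 13 called genes with a further measured probe, 3 had one of the opposite sign, at 0.30 for NSD1, 0.25 for TLR6 and 0.33 for ZC3HAV1. Further probes of PREPL (-0.08 ± 0.19), KCNRG (-0.14 ± 0.30), PRKAG2 (0.14 ± 0.21), ENO3 (0.24 ± 0.27) and ZC3HAV1 (-0.15 ± 0.18) kept the sign with changes smaller than their SE. Those of CXCL8, CD69, RN7SK, TMEM106B, IFNLR1 and TICAM1 kept it with changes larger than their SE.

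The genes called only when array 7 was left out were CCL3L3, MED13L (-1.06 ± 0.20), RAP1B (-1.03 ± 0.21), CCNG2 (-0.96 ± 0.17) and TMED7 (-0.92 ± 0.17), which fell, and TMEM107 (1.48 ± 0.23), CMIP (1.10 ± 0.19), RPPH1 and C5orf22 (0.90 ± 0.17), which rose. TMEM107, a membrane protein of the ciliary transition zone, measured 7.40 on array 7, 8.35 and 8.81 on arrays 8 and 9 and 7.22, 6.99 and 7.09 on the controls. CMIP, a signalling adaptor, measured 8.40, 9.29 and 9.47 against 8.26, 8.06 and 8.52. In both, array 7 lay near the controls and the other TPCK arrays above them.

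Leaving out single arrays changed the count of calls from 53 to between 28 and 39. It was 33 without array 9, 30 without array 13 and 28 without array 14. Of the 53 genes, 25 were called whichever array was left out, among them RNU6ATAC, RNU11, SNORD46, SNORD14A, SNORA33, CXCL8, KBTBD8 and TINF2. The calls of PSMD12, ZNF800, CLGN, BTG1, ENO3, TICAM1 and SNORA64 were lost whichever of the 6 arrays was left out.

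Raji cells received TPCK at the same dose and time. No gene passed the test of the difference between the responses of the lines by limma, with 595 at an unadjusted p under 0.05 (5.56%; 6.61% for TPCK in Raji), and 4 were called with array weights. Of the 53 genes called in DG75, 47 had the same sign in Raji (57.6% of all genes did), 38 with TPCK arrays beyond the controls there (10.8% of all genes), and 16 were also called among the 47 genes called in Raji (0.439%). The lines share no controls. Of the 53, 49 were detected on at least 1 Raji TPCK or control array, and 46 of these had the same sign. All 14 small RNAs that fell in DG75 had the same sign in Raji, where changes ran from -1.64 to -0.62 and 9 were called. RNU6ATAC had 1.57 in Raji (adjusted p = 1.15e-05) and RNU11 had 1.07 (adjusted p = 0.0141). Of the other 21 genes that fell, 1 was called in Raji, namely SGK1 (-0.70, adjusted p = 0.0315). CXCL8 had -0.64 (adjusted p = 0.266), CD69 -0.22 and BCL2A1 -0.17 in Raji. The differences between the lines were -0.79 ± 0.26, -0.84 ± 0.26 and -0.86 ± 0.29, and none passed (adjusted p from 0.795 to 0.853). Without array 7 these differences were -0.77, -0.92 and -0.91. Some other named genes had larger differences, none of which passed, and those given here were picked after their values were seen. FOSB had 1.25 ± 0.22 (adjusted p = 0.129), with -1.06 in Raji (adjusted p = 0.00460). CDKN1A had 0.90 ± 0.19, RNU6ATAC 0.93 ± 0.19 and TMEM106B -0.93 ± 0.20, each at an adjusted p of 0.281. The difference for ID3 was smaller, at 0.75 ± 0.20 (adjusted p = 0.587), and its change in Raji alone was -0.001. KLF5, TMEM106B, CLGN and SOX11 were detected on none of the Raji TPCK and control arrays.

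**Figure D5:**
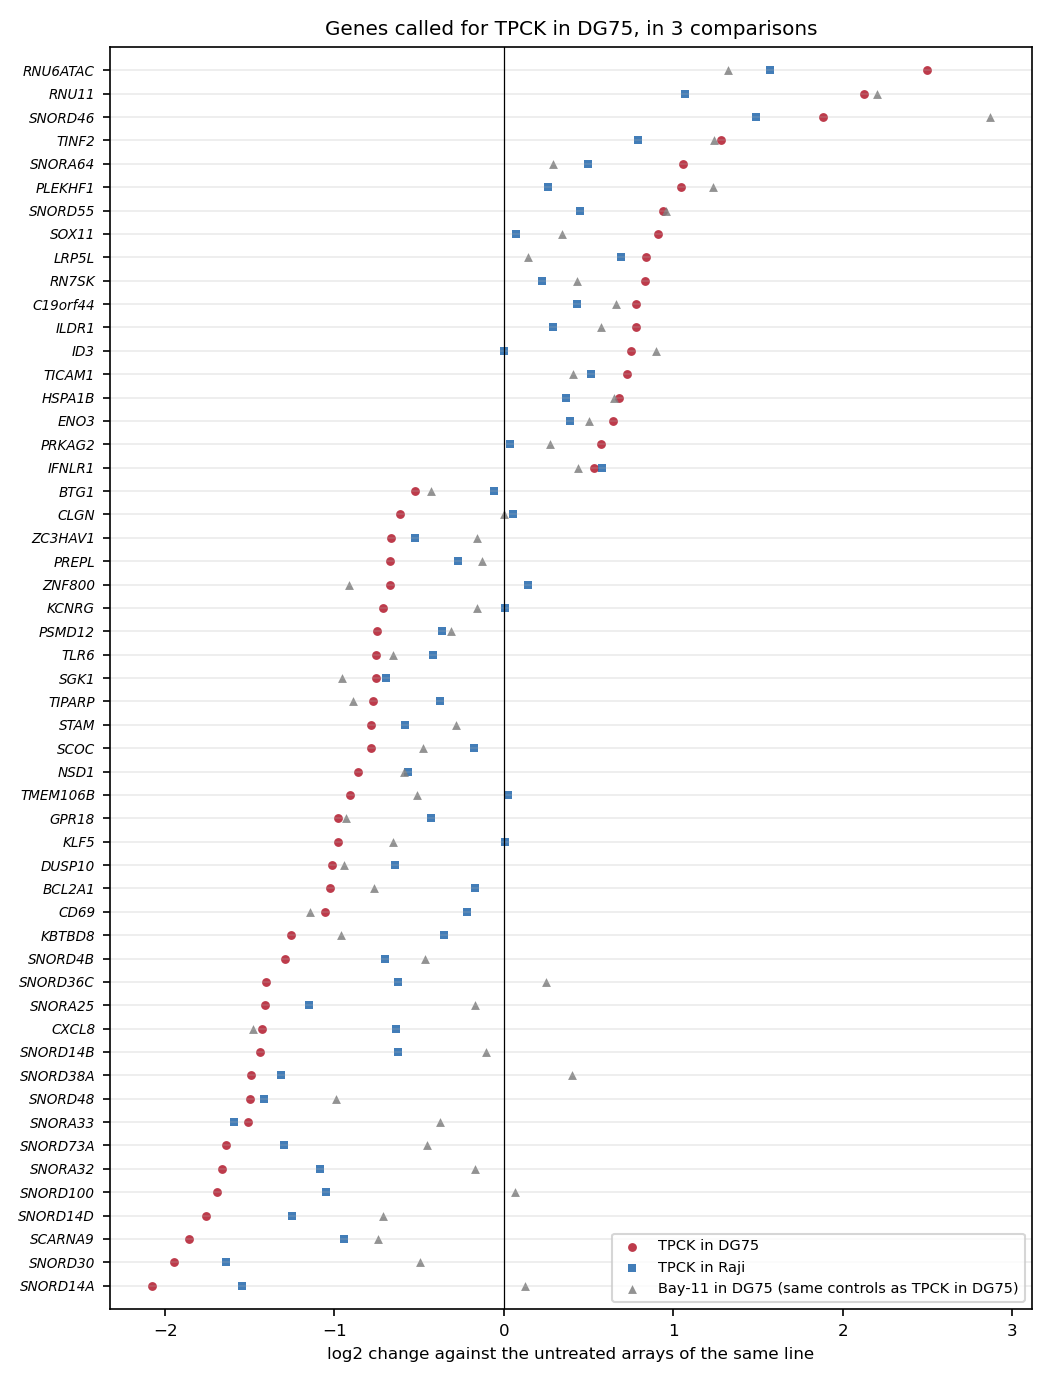
Rows are the 53 called genes and points give log2 changes against the untreated arrays of the same line, for TPCK in DG75 (red), TPCK in Raji (blue) and Bay-11 in DG75 (grey), the last with the same control arrays as the first. At the bottom the grey points of most small RNAs lie nearer 0 than the red and blue ones, while at CXCL8, CD69 and TINF2 grey and red points lie together.

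Bay-11, used against phosphorylation of IkB, differed from TPCK in DG75 at 20 genes (0.187%), 3 higher with TPCK (0.028%) and 17 lower (0.159%), with 1136 genes (10.6%) at an unadjusted p under 0.05. Array 10, of Bay-11, had the lowest mean correlation with its own group of all 18 arrays (0.954). The number at an unadjusted p under 0.05 was 581 without array 10 and 2296 without array 12, and the calls were 22 and 29. This test sets TPCK arrays directly against Bay-11 arrays and uses no control. The count was 12 without array 7, 8 with median centring, all lower with TPCK, and 0 when only these 6 arrays were fitted, with 385 genes at an unadjusted p under 0.05. Of the 14 small RNAs that fell with TPCK, 10 were lower with TPCK than with Bay-11. These 14 were chosen on the same TPCK arrays, so this count is not independent of the comparison with controls. SNORD38A measured 5.11, 5.38 and 5.25 with TPCK and differed from Bay-11 by -1.89 ± 0.13 (adjusted p = 6.63e-07). SNORD14A differed by -2.20 ± 0.23 (adjusted p = 0.000200), SNORD14C by -2.01 ± 0.29 (adjusted p = 0.00388), SNORD100 by -1.76 (adjusted p = 0.000168), SNORD36C by -1.65 (adjusted p = 0.000947) and EBLN2, a gene derived from an ancient bornavirus sequence, by -1.57 (adjusted p = 0.0189). RNU6ATAC (1.18, adjusted p = 0.000274), LRP5L (0.70, adjusted p = 0.0162) and SNAR-A1, a small non-coding RNA that binds nuclear factor 90 (1.24, adjusted p = 0.0367), were higher with TPCK. SNORD46 was lower with TPCK than with Bay-11 (-0.99, adjusted p = 0.00852). For CXCL8 the difference was 0.06 ± 0.19, for CD69 0.09 ± 0.18, for RNU11 -0.07 ± 0.19 and for TINF2 0.04 ± 0.13, and none of these passed.

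Against the shared untreated arrays, Bay-11 gave 66 calls in DG75 (0.617%), and 17 of the 53 TPCK genes were among them. None of the 14 small RNAs that fell with TPCK was called with Bay-11, where their changes ran from -0.99 to 0.40 and 4 had the opposite sign. The Bay-11 arrays were split for some. SNORD30 measured 5.8 on array 10, against 7.6 and 7.4 on arrays 11 and 12. SNORD14D had 4.8 against 6.3 and 6.3, and SNORD48 5.2 against 6.2 and 6.7. SNORD14A, SNORD100, SNORA32, SNORD73A, SNORD38A, SNORA25, SNORD36C and SNORD4B were instead highest on array 10. These RNAs were picked out after their values had been seen. Of the 21 other genes that fell, 9 were called with Bay-11, among them CXCL8 (-1.48), CD69 (-1.15), KBTBD8 (-0.96), SGK1 (-0.95), DUSP10 (-0.94), GPR18 (-0.93) and TIPARP (-0.89). Both comparisons use the same 3 control arrays, so their values stand side by side only. Arrays carry RNA of the whole culture, and fewer cells with a transcript and less of it per cell cannot be told apart.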

How the data were processed

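Illumina bead arrays measured 18 RNA samples of 6 groups. Purification, per the labels' protocols, was done with Trizol and RNeasy columns including a DNase step, and biotinylated cRNA was made with a MessageAmp kit. The deposited raw table holds log2 bead signals of 49576 probes and, per the file headers, a detection p-value beside each signal. The authors' software is not given in the sources used here, nor is a genome build. Groups came from titles, which the column names matched, and 0 columns stayed unused. The second deposited table of log2 values served only for the alternative with replicate numbers, where its DG75 TPCK and control columns equal the raw ones.

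Signals were background-corrected by normexp (offset 16, from detection p-values) and then quantile normalized, both by the neqc function (limma 3.58.1, R 4.3.3). Probes with a detection p under 0.01 on at least 3 arrays were kept (17652). Of these 14195 had 1 symbol in the platform annotation, which names 17112 probes, 3 of them with several symbols. 17095 probes matched the RefSeq gene table by Entrez identifier and 0 symbols changed. The kept probe with the highest mean stood for each gene. Probe and array numbers, not read depth, limit precision. limma fitted 6 group means on all 18 arrays, so all groups share 1 estimate of spread (12 residual and 4.26 prior degrees of freedom), and p-values were adjusted by Benjamini-Hochberg over 10697 genes. The code was tested on simulated data.

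Named genes are all genes called for TPCK against control, for the difference between the lines or for TPCK against Bay-11, all called without array 7 and 49 genes listed by name, of which CCL4 and BIRC3 had 0 named probes, so that 47 were measured. The members, gene lists and marker lists were chosen with earlier results of these data known. Alternatives were other background corrections, scalings, filters, probe summaries and fits, and leaving out arrays. The result for 1 containing gene is not reported here.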

Additional observations from a re-analysis of the deposited data

Results flagged for a closer look

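On array 7, of TPCK-treated DG75, 687 probes were detected that no other array detected, and 79 of them had a raw log2 signal over 8. On each other array at most 1 probe met both conditions. The brightest named ones were SCGB2A2, a mammary secretoglobin, with a raw log2 signal of 14.07 against at most 5.61 on any other array, CHGB, a secretory granule protein, with 12.84 against 5.70, CA2 with 12.12 and SCGB1D2 with 11.75. The comparisons name no gene detected on array 7 alone.

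Probes without a gene symbol lay outside the comparisons. Of 3457 such probes 19 were called for TPCK against control in DG75 (limma, Benjamini-Hochberg adjustment), 9 higher and 10 lower. The probe ILMN_1776125 had the largest increase, 3.29 ± 0.26 log2 units (mean 10.07 with TPCK and 6.78 without, adjusted p = 5.63e-06), larger than that of any named gene. ILMN_1730780 was detected on 0 of 3 TPCK and 3 of 3 control arrays and was at least 4.04-fold lower with TPCK (measured means 4.41 and 6.93, adjusted p = 3.85e-07).

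Groups of 3 arrays are too small for the test of single outlying samples used here.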

How the results depend on the processing

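Of the 53 calls for TPCK against control, the count was 22 with median centring (16 higher, 6 lower), 13 with no normalization (12 higher, 1 lower), 27 with only the groups compared (6 higher, 21 lower), 20 with only the 9 DG75 arrays (5 higher, 15 lower), 25 in the second deposited table (7 higher, 18 lower) and 28 to 39 without single arrays. It was within 1.5 times of 53 with no background correction (60), a filter at 6 arrays (57), averaged probes (50), no filter (48), a mean-variance trend (62), a robust fit (53), an offset of 50 (74), array weights (76) and without arrays 7 and 10 (70). The share of calls that rose was 34% and became 72.7%, 92.3%, 22.2% and 25% under the first 4 of these settings, with 17, 11, 24 and 20 genes shared with the 53. For TPCK against Bay-11 the 20 calls became 8 with median centring, 5 with no normalization, 0 with only these groups, 10 with the 9 DG75 arrays and 12 to 29 without single arrays. The difference between the lines gave 0 calls except with array weights (4).

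Replicate numbers in the second table do not pair the samples by the rule used, since same-numbered deviations correlated with 0.059, 0.115 and 0.153, although each sample correlated best with its own number. With the replicate number as a block 18 genes were called (4 higher, 14 lower), against 25 without the block.

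No called gene changed direction under any setting. Genes that were not called did, and the cause was not tested. With no normalization KLF6 had 0.015, TNFAIP3 0.045, PMAIP1 0.019, CD83 0.123, IER2 0.283, GADD45A 0.285, HMOX1 0.279 and SRXN1 0.422. With median centring CD83 had 0.038, IER2 0.197, GADD45A 0.199, HMOX1 0.194 and SRXN1 0.337. GADD45A had 0.078 with averaged probes, REL -0.008 with array weights, and SRXN1 0.184, JUN -0.01 and EGR1 -0.086 without arrays 7 and 10. NFKB2 had -0.055 with only the groups compared and -0.034 in the second table with or without the block. The probe with the highest mean was chosen anew in each setting, and whether these NFKB2 values come from another probe was not tested. Without single arrays, changes ran from -0.269 to 0.228 for HMOX1, from -0.169 to 0.186 for SRXN1, from -0.088 to 0.185 for JUN, from -0.142 to 0.165 for REL, from -0.005 to 0.265 for MYC, from -0.175 to 0.429 for TXNRD1, from -0.031 to 0.383 for MCL1, from -0.078 to 0.354 for ICAM1, from -0.088 to 0.44 for EGR1 and from -0.033 to 0.723 for RELB.

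Genes near background have changes compressed by the offset, and the 2 genes undetected with TPCK and the 1 undetected in controls have only bounds.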

Other observations

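Some genes had larger changes than many called genes without passing the test, and they are given here as values chosen after they were seen. DNAJB9, a chaperone of the endoplasmic reticulum, had a change of -0.78 (limma, adjusted p = 0.0521). SNORD4A, which guides methylation of ribosomal RNA from within RPL23A, had -1.03 (adjusted p = 0.0753). EBLN2 had -1.20 against control (adjusted p = 0.0704), and it was called only against Bay-11.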
